A study of Ovis aries with 30 samples.

Results

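The genes for 7 proteins best known from blood plasma, ALB, AHSG, APOA1, TTR, SERPINA1, F2 and TF, were followed in epicardial adipose tissue (EAT), the fat depot on the surface of the heart, of 30 sheep. They were found by gene name, or by the symbol or full name in the probe description, and are 7 of the 1025 gene names that could be read for the array. They were selected on intensities in these same animals: TF by its difference between Control lambs and Control fetuses, ALB by its range between animals, and the other 5 as further plasma protein genes whose intensities could be seen. The levels below therefore describe them, and the comparison of Control lambs with Control fetuses is given with no test. Tissue came from 8 Control fetuses at term, 6 CORT fetuses, 7 Control lambs and 9 CORT lambs. Controls were the offspring of untreated ewes. CORT fetuses came from ewes given cortisol at 1 mg/kg/day, and CORT lambs from ewes given 0.5 mg/kg/day, in both cases from gestational day 115 to term. The study infused the ewes of its lambs only overnight, and describes its model at 1 mg/kg/day as a continuous infusion. Lambs were born naturally and sampled at 2 weeks of age, and no fetus or lamb was itself infused. The study reports a twin pair in each group of lambs, but the twins are not marked in the labels, and lambs were treated as independent.

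Most circulating plasma protein is made by hepatocytes and secreted into blood. Albumin (ALB) sets the oncotic pressure of plasma and carries fatty acids. Fetuin-A (AHSG) is a mineral-binding glycoprotein that is abundant in fetal blood, apolipoprotein A-I (APOA1) is the main protein of high-density lipoprotein, transthyretin (TTR) carries thyroxine and retinol-binding protein, alpha-1-antitrypsin (SERPINA1) inhibits neutrophil elastase, prothrombin (F2) is the precursor of thrombin, and transferrin (TF) carries iron. Several of these genes are also transcribed outside the liver, and the array measures the transcript in the dissected tissue, not the protein that blood brings to it.

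The 7 genes had 10 probes of 60 bases. ALB, AHSG and SERPINA1 had 2 probes each and the other genes 1. Where a gene had 2 probes, the brighter one represented it. Parts of the probe sequences, read from the scanner files 5′ to 3′, are given because they decide how far a second probe is separate evidence. The ALB probes lay side by side, from bases 1896 and 1956 of the transcript record, and did not overlap. A further probe, made to an expressed sequence tag (EST) and given no gene name by the array, held a run of 29 bases found in the dimmer ALB probe. Capitals mark that run in the stretches shown.
ALB, brighter probe: gcctaccctgagagtgagacgaaaaaagag
ALB, dimmer probe: TAAACCTACACCCTCTCTAAAGAACATAAa
EST probe: TAAACCTACACCCTCTCTAAAGAACATAAt
The AHSG probes shared 20 bases and the SERPINA1 probes 40 bases, in capitals below, so within each pair the measurements were not independent of one another.
AHSG, first probe: actctgaaagGTGCTCTTGCCAAGTTTATA
AHSG, second probe: GTGCTCTTGCCAAGTTTATAtctgcttgtc
SERPINA1, brighter probe: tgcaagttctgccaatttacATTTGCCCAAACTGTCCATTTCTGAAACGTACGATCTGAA
SERPINA1, dimmer probe: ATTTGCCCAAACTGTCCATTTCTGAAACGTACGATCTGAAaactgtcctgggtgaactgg
The APOA1 and TF probes were made to ESTs and took their names from the array's gene column alone. They are shown because both genes differed between the ages. The array's own accession list tied 1 further unnamed EST probe to the APOA1 probe.
APOA1: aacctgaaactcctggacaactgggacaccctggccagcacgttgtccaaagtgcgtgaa
TF: gccctcacaatttggtggtggcgcctctgc

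Levels are log2 intensities after background correction and quantile normalization over the 30 arrays, and differences are on the same scale, so that a difference of 1 is a doubling. Levels of different probes were not set against one another, since probes differ in how well they bind. The median foreground intensity of an array was 132 to 240 over a median local background of 34 to 46, and 70.4% to 83.5% of spots were well above background by the scanner's own flag. The fetal arrays filled 2 slides and the lamb arrays the other 2, with Control and CORT animals on each, so slide and age cannot be told apart. ALB, APOA1 and TF were well above background in all 30 animals, AHSG in 6, TTR in 7, SERPINA1 in 6 and F2 in 10. A filter on low signal kept 9 of the 10 member probes, the dimmer SERPINA1 probe being dropped, among 13077 probes tested. The plot of all members by animal shows these levels.

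**Figure D1:**
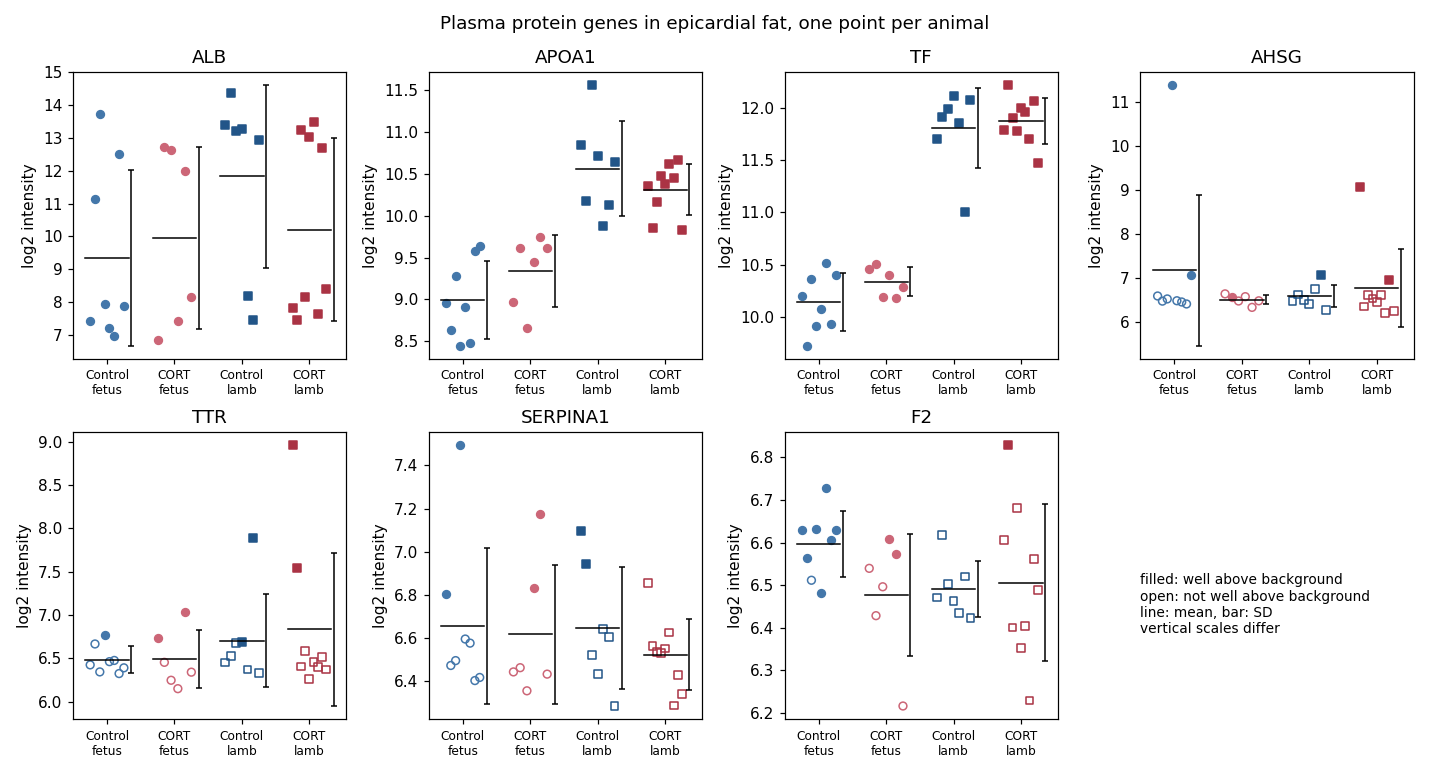
Log2 intensity (vertical axes, each with its own scale) of the 7 plasma protein genes in the 4 groups, 1 point per animal, with the mean (line) and SD (bar). Filled points were well above background. ALB splits into a high and a low set in every group, APOA1 and TF are higher in all lambs than in all fetuses, and most points of AHSG, TTR, SERPINA1 and F2 lie close to background.

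Albumin was either high or low in an animal, with no value between. In Control fetuses the ALB level had a lowest value of 6.97, a median of 7.92 and a highest value of 13.72 (n = 8). In CORT fetuses these were 6.83, 10.07 and 12.74 (n = 6). In Control lambs they were 7.45, 13.20 and 14.37 (n = 7), and in CORT lambs 7.44, 8.38 and 13.49 (n = 9). No animal lay between 8.38 and 11.14, a gap of 2.76, and 15 animals fell on each side of it. The ranges of the 4 groups overlapped, with highest values from 12.74 to 14.37 and lowest values from 6.83 to 7.45. The high animals were 3 of 8 Control fetuses, 3 of 6 CORT fetuses, 5 of 7 Control lambs and 4 of 9 CORT lambs. As uncorrected foreground intensity, the low animals read 101.7 to 410.6 and the high animals 2787 to 18058.

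The same animals were high on the second ALB probe and on the EST probe. On the dimmer ALB probe, which covers the next stretch of the transcript, the 15 low animals read 6.28 to 7.14 and the 15 high animals 8.96 to 12.46. That probe was well above background in 25 animals. On the unnamed EST probe the ranges were 6.25 to 6.59 and 6.85 to 9.59, and this probe was well above background in 15 animals. Since the EST probe shares 29 bases with the dimmer ALB probe, those 2 measurements were not independent of one another. With quantile normalization the sets did not overlap on any of the 3 probes. Each slide held animals of both sets, with 4 of 7, 2 of 7, 5 of 8 and 4 of 8 animals high on slides 1 to 4. The brighter probe divided the 30 animals into the same sets with the scanner's processed signal and with cyclic loess normalization, and the same 9 of 16 lambs were high in the values the authors deposited for lambs. With cyclic loess the sets were closer on the dimmer ALB probe, at most 8.26 against at least 8.97, and overlapped on the EST probe, at up to 7.20 in the low set and down to 6.77 in the high set. The largest gap between neighbouring animals then set 1 animal apart from 29 on both of these probes, as it did on the EST probe after quantile normalization. The plot of the albumin probes shows the break.

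**Figure D2:**
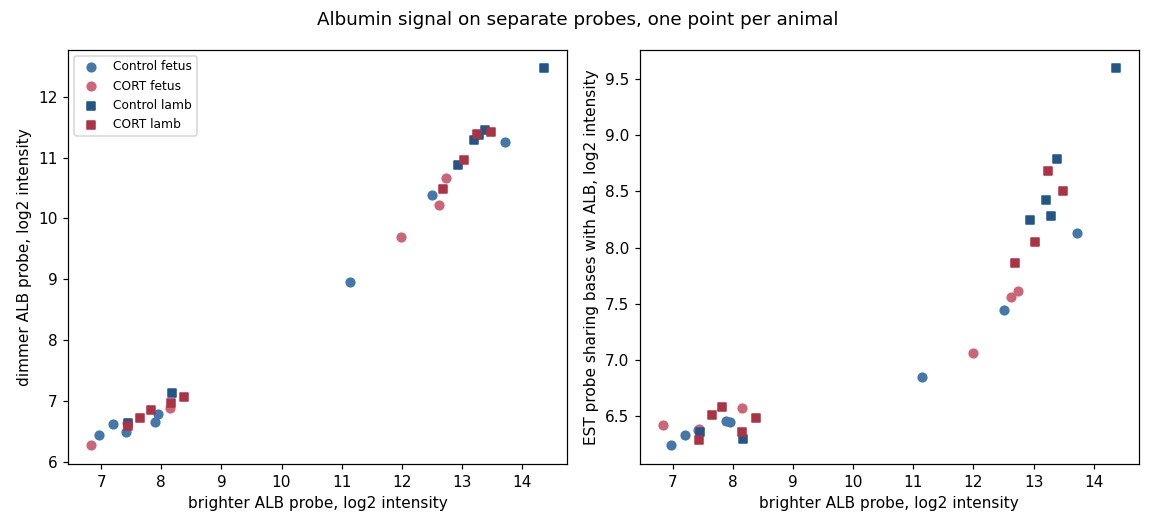
Log2 intensity of the dimmer ALB probe (left) and of the unnamed EST probe that shares 29 bases with it (right) against the brighter ALB probe, 1 point per animal, with colour and shape for the 4 groups. In both panels 15 animals sit at the lower left and 15 at the upper right, and each set holds animals of all 4 groups.

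Within-group spread placed ALB at the edge of the array. Its pooled within-group SD was 2.75, rank 1 of the 13077 tested probes, against a median of 0.18 over those probes. The dimmer ALB probe had an SD of 2.14 and rank 6. A range of at least 4 inside each of the 4 groups was seen for 3 tested probes, 2 of which were those of ALB, and the other was an EST without a gene name. Since the gene was picked for its variation, these ranks describe it and support nothing further. In bulk tissue, fewer cells of a type that makes the transcript and less transcript per cell cannot be told apart.

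Transcripts that mark other cell types were set beside ALB. Of a list of 44 hepatocyte genes, 6 had a probe and 5 passed the filter. The group-centred levels of those 5 correlated with ALB with r between -0.20 (G6PC1, glucose-6-phosphatase) and 0.11 (SERPINC1, antithrombin) over the 30 animals. Of the mesothelial list, WT1 and SLPI had r of 0.35 each. The erythroid genes HBB and AHSP had r of 0.31 and 0.05, the muscle oxygen store MB had r of -0.44, and the 10 adipocyte genes ranged from -0.03 to 0.37. The named genes most like ALB were SFXN1 (r = 0.63), a mitochondrial serine carrier, TGFBR1 (r = 0.62), a TGF-beta receptor, and SRSF3 (r = 0.55), a splicing factor. Because ALB falls into 2 sets, each of these values mainly reflects how a gene sits in the one set and the other, and the part of any of these cell types in the ALB level was not tested.

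Apolipoprotein A-I was higher in every lamb than in every fetus. In Control fetuses APOA1 had a lowest level of 8.45, a median of 8.93 and a highest level of 9.64, and in CORT fetuses 8.66, 9.53 and 9.74. In Control lambs the values were 9.88, 10.65 and 11.56, and in CORT lambs 9.83, 10.38 and 10.67. The groups of the 2 ages did not overlap, though the gap was narrow, from 9.74 in the highest fetus to 9.83 in the lowest lamb. The CORT animals took no part in the comparison by which TF was chosen, but their intensities were open when the genes were chosen, so the p-values here are not fully independent of the choice. In CORT animals the lamb mean of 10.31 exceeded the fetal mean of 9.34 by 0.97 (SE 0.17), a 1.96-fold difference (limma, adjusted p = 0.00039 over all tested probes). An exact two-sided permutation test gave p = 0.0002, the smallest its 5005 splits allow. In Control animals the difference was 1.57 (SE 0.24), given here as a description. The EST probe tied to APOA1 by accession ran from 7.67 to 8.76 in fetuses and from 8.50 to 9.98 in lambs, with some overlap, and was higher in CORT lambs than in CORT fetuses by 0.66 (SE 0.18, limma adjusted p = 0.0075).

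Transferrin separated the ages more widely. TF had a lowest level of 9.72, a median of 10.14 and a highest level of 10.51 in Control fetuses, and 10.18, 10.34 and 10.51 in CORT fetuses. It had 11.003, 11.91 and 12.12 in Control lambs and 11.47, 11.90 and 12.22 in CORT lambs. All 16 lambs lay above all 14 fetuses. In CORT animals the difference was 1.54 (SE 0.10), or 2.91-fold, with a limma adjusted p of 8.8e-08 and an exact permutation p of 0.0002, again the smallest possible. TF was chosen for this same difference in Control animals, which shared slides and normalization with the CORT animals. Its p-values are therefore not separate support for the difference. In Control animals it was 1.67 (SE 0.16), or 3.18-fold, as a description.

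Lambs and fetuses were separated for 2 of the 7 members. Of the 13077 probes, 36.8% differed between CORT lambs and CORT fetuses at an adjusted p under 0.05, 18.1% being higher in lambs, and 2 of 7 members were called, both higher. Groups that did not overlap were seen for 11.7% of probes in CORT and 15.6% in Control animals, and for 2 of 7 members, APOA1 and TF, in both. The median difference of the 7 members was 0.27 in CORT and 0.22 in Control animals, where the median over all tested probes was -0.0036 and -0.0071. Each member median is the value of a single gene near background, AHSG in CORT and TTR in Control animals. Without CORT lamb 1 the AHSG value was -0.013. The member medians therefore do not show a shift of the members as a set. Lambs and fetuses of the CORT groups differed in maternal dose and slide as well as age, and by the study's account in infusion schedule. These differences cannot be told apart. ALB was higher by 2.48 (SE 1.28) in Control lambs and by 0.25 (SE 1.31) in CORT lambs than in the fetuses of the same treatment. The second value did not pass the test (limma, adjusted p = 0.90). Animals of the high set numbered 5 of 7 lambs and 3 of 8 fetuses in Control, and 4 of 9 lambs and 3 of 6 fetuses in CORT animals.

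AHSG was close to background in most animals and bright in 2. In Control fetuses its lowest, median and highest levels were 6.42, 6.51 and 11.39, in CORT fetuses 6.34, 6.53 and 6.65, in Control lambs 6.29, 6.52 and 7.08, and in CORT lambs 6.21, 6.55 and 9.07. The level of 11.39 belonged to Control fetus 4 and that of 9.07 to CORT lamb 1, and the second AHSG probe read 10.70 and 8.86 in them. Control fetus 8, Control lamb 6 and CORT lamb 8, 3 further animals, were also well above background on both probes, at 7.09, 7.08 and 6.97 on the brighter one. CORT fetus 2, at 6.57, was well above background on the brighter probe alone. Both bright animals and the first 2 of these 3 were in the low set for ALB, and CORT lamb 8 and CORT fetus 2 were in the high set. Of the 6 animals with AHSG well above background, 4 were thus low for ALB and 2 high.

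TTR was well above background in 1 Control fetus, 2 CORT fetuses, 2 Control lambs and 2 CORT lambs. Its lowest, median and highest levels were 6.33, 6.44 and 6.77 in Control fetuses and 6.15, 6.40 and 7.04 in CORT fetuses. They were 6.33, 6.53 and 7.89 in Control lambs and 6.26, 6.46 and 8.96 in CORT lambs. The 4 highest animals were CORT lamb 1 at 8.96, Control lamb 6 at 7.89, CORT lamb 2 at 7.55 and CORT fetus 5 at 7.04. AHSG and TTR were both well above background in 3 animals, Control fetus 4, Control lamb 6 and CORT lamb 1. CORT lamb 1, Control lamb 6 and CORT lamb 2 were in the low set for ALB and CORT fetus 5 in the high set, at 11.99. Of all 7 animals with TTR well above background, 5 were low for ALB and 2 high, the other high one being Control lamb 4 at 13.29. The plot of AHSG, TTR and SERPINA1 sets the animals side by side.

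**Figure D3:**
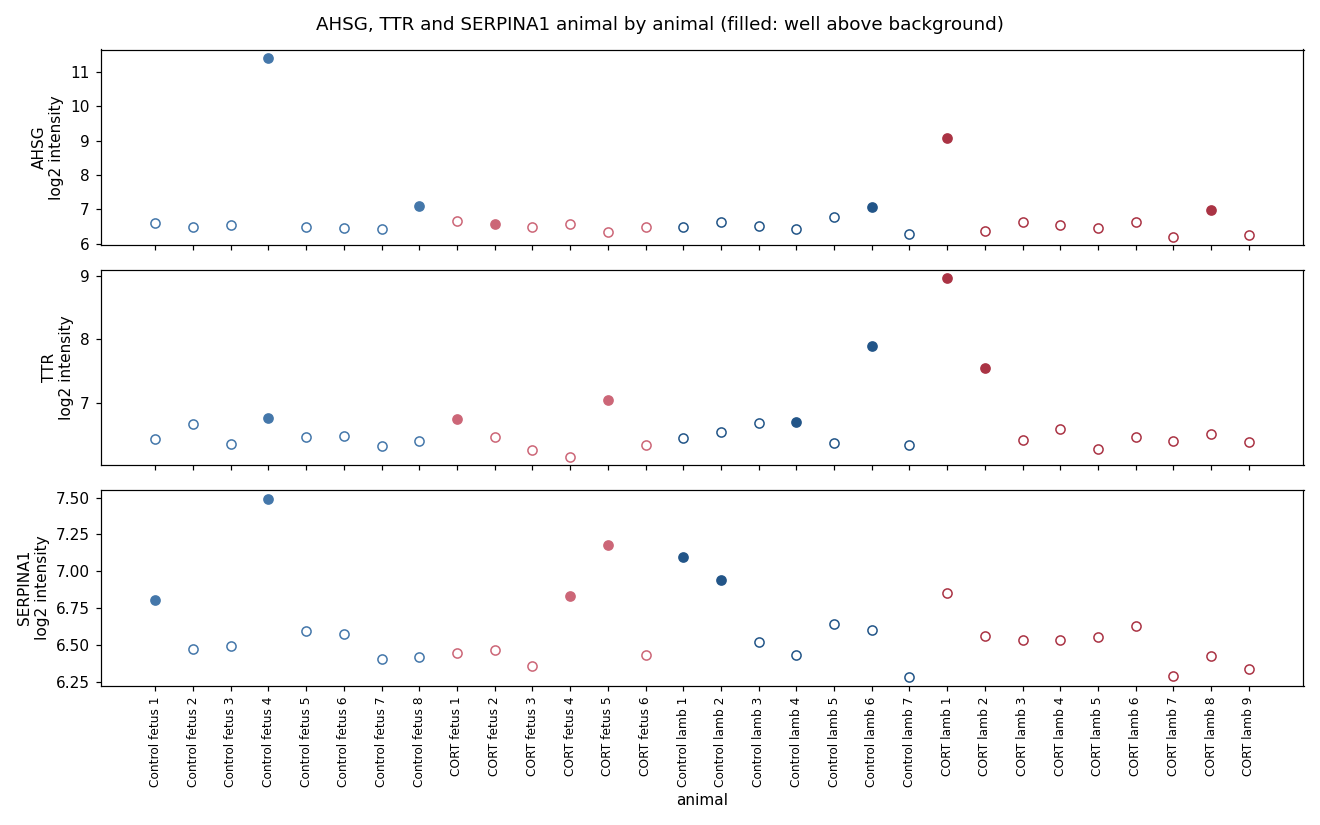
Log2 intensity of AHSG, TTR and SERPINA1 (vertical axes, separate scales) in each of the 30 animals (horizontal axis), coloured by group, with filled points well above background. Control fetus 4 is highest for AHSG (11.39) and SERPINA1 (7.49), and CORT lamb 1 is highest for TTR (8.96) and next for AHSG (9.07).

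SERPINA1 and F2 stayed near the limit of the array. SERPINA1 was well above background in 2 Control fetuses, 2 CORT fetuses, 2 Control lambs and no CORT lamb, with highest levels of 7.49, 7.18, 7.09 and 6.86 in that order and medians of 6.54, 6.45, 6.60 and 6.53. In Control fetus 4, the highest, the dimmer SERPINA1 probe read 7.42 and was well above background there alone. No fold is given for SERPINA1 against CORT lambs, since none of them and only 2 animals in each other group were well above background. F2 ranged from 6.48 to 6.73 in Control fetuses, from 6.22 to 6.61 in CORT fetuses, from 6.42 to 6.62 in Control lambs and from 6.23 to 6.83 in CORT lambs. Its medians were 6.62, 6.52, 6.47 and 6.49. It was well above background in 7 of 8 Control fetuses, 2 of 6 CORT fetuses, 0 of 7 Control lambs and 1 of 9 CORT lambs. No fold is given for F2 against Control lambs, since none of them was well above background. All 4 groups overlapped for both genes. Of the 6 animals with SERPINA1 well above background, 3 were low for ALB and 3 high. For F2, 7 of 10 such animals were low for ALB and 3 high.

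The comparison of CORT with Control asked whether maternal cortisol moved these transcripts, and no member was called. The share of all tested probes called was 0.0% in lambs and 0.0% in fetuses by limma with adjustment over all probes. At an unadjusted p under 0.05 it was 3.57% and 2.35%, and 0 of 7 members were among them. In lambs, ALB was lower in CORT by 1.62 on average, a difference of -1.62 with a 95% interval of -4.32 to 1.08. On slide 3 it was lower by 4.40 in CORT lambs (difference -4.40, 4 against 4), and on slide 4 it was higher by 1.53 (3 against 5), so its direction was not the same on both slides. In fetuses ALB was 0.61 higher in CORT (interval -2.28 to 3.50).

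APOA1 differed between CORT and Control lambs by -0.25 (interval -0.68 to 0.18) and between CORT and Control fetuses by 0.35 (interval -0.14 to 0.84). TF differed by 0.07 (interval -0.23 to 0.37) in lambs and by 0.20 (interval -0.06 to 0.45) in fetuses. These intervals bound the size that these animals leave possible and do not show that the groups were alike. AHSG differed by -0.66 (SE 0.64) in fetuses and by 0.19 (SE 0.31) in lambs, and without Control fetus 4 and CORT lamb 1, left out in turn, the values were -0.06 and -0.09. TTR differed by 0.01 in fetuses and 0.13 in lambs, and the lamb value became -0.14 without CORT lamb 1. SERPINA1 differed by -0.04 in fetuses and F2 by -0.12. In lambs the fitted differences of -0.12 and 0.02 each involve a group with no animal well above background, CORT lambs for SERPINA1 and Control lambs for F2, and give no size of change. For F2 in fetuses the exact permutation test, over 3003 splits, gave an unadjusted p of 0.048 where limma gave 0.077 (adjusted p = 1.00).

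Whether the cortisol effect differed between the ages was tested as the lamb difference minus the fetal difference, at unequal doses and infusion schedules. It was -2.23 (SE 1.92) for ALB, -0.60 (SE 0.31) for APOA1, -0.13 (SE 0.19) for TF, 0.86 (SE 0.72) for AHSG, 0.11 (SE 0.41) for TTR, -0.08 (SE 0.20) for SERPINA1 and 0.14 (SE 0.10) for F2, the last 2 resting on those same lamb groups. None of the 7 was called by limma, where 0.0% of all tested probes were called and 2.06% had an unadjusted p under 0.05, with 0 of 7 members among them. The plot of differences shows the size of the ALB error beside those of the other members.

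**Figure D4:**
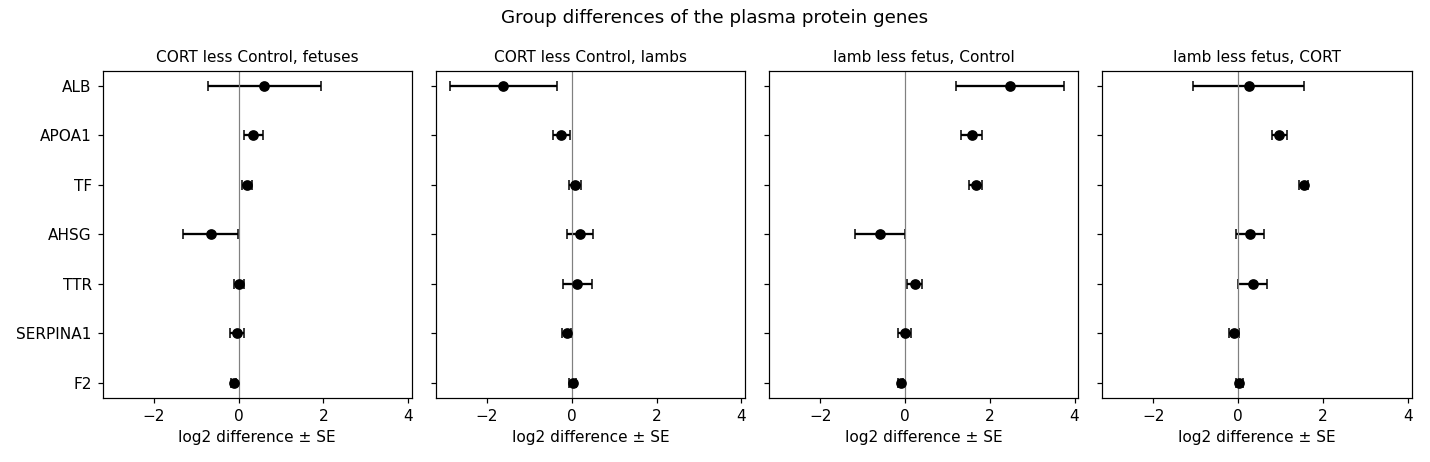
Difference in log2 intensity (horizontal axis, point) with its SE (bar) for the 7 members in 4 comparisons, with a line at 0. TF and APOA1 lie clear of 0 in both comparisons of lambs with fetuses, and the ALB bars are the widest in all 4 panels. SERPINA1 in CORT lambs and F2 in Control lambs were not well above background in any animal.

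APOA1 and TF, both measured in every animal, were compared between the animals of each group. Pearson's r was 0.22 in Control fetuses, 0.10 in CORT fetuses, 0.38 in Control lambs and 0.17 in CORT lambs, and Spearman's rho was 0.31, -0.26, 0.39 and 0.22. Exact permutation p-values for r were 0.59, 0.82, 0.38 and 0.65, each 0.82 after adjustment over the 4 groups. Without the 2 animals farthest from the group's median APOA1 level, r was 0.29, -0.60, 0.56 and 0.35. No relation could be told from the spread between animals. ALB was left out of such correlations because its animals fall into 2 separate sets.

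The named genes whose group-centred levels followed APOA1 most closely over the 30 animals were DCN (r = 0.62), the matrix proteoglycan decorin, an uncharacterised gene named LOC100101229 (r = 0.59), and CD81 (r = 0.58), a tetraspanin. Among probes measured on all 30 arrays, for TF they were RPN2 (r = 0.74), a subunit of the oligosaccharyltransferase, NCK1 (r = 0.68), an adaptor protein, and TIE1 (r = 0.65), an endothelial receptor kinase. These r values are descriptions, and their points share arrays and normalization. Over the 10 adipocyte genes r with TF ran from 0.02 (UCP1) to 0.66 (LPL, over 29 arrays), with 0.57 for PPARG, 0.52 for PLIN1 and 0.16 for FABP4, and r with MB was -0.46. Control lamb 6, the lowest lamb for TF at 11.003, had the highest MB of the 30 animals at 16.89 and the lowest summed level of the 10 adipocyte genes, 15.23 against 15.72 to 16.84 in the others. Without it the difference in TF between Control lambs and Control fetuses was 1.80 in place of 1.67. The part of muscle or fat content in these levels was not tested.

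Markers of other tissues were read in the animals that stood apart. In Control fetus 4, 1 of 5 hepatocyte genes was the highest of the 30 animals, the cytochrome P450 CYP3A24 at 8.02, and the summed hepatocyte level of 9.84 was rank 19. In CORT lamb 1 it was SERPINC1 at 8.03, with a summed level of 10.29 at rank 5, and in Control lamb 6 it was G6PC1 at 8.34, with 9.95 at rank 16. Over the other animals the sum ran from 9.62 to 10.42. PCK1 read highest of the 5 genes, with group means of 8.60 to 8.98, so the sum leans on it. The ranks therefore say little of the other hepatocyte genes. Of the cardiac muscle list only MB was tested, and among the 30 animals it ranked 3 in CORT lamb 1 and 1 in Control lamb 6. In Control fetus 4 it ranked 22. The summed level of the 10 adipocyte genes ranked 26, 30 and 3 in the same order. What part muscle or fat content has in the AHSG and TTR levels of these animals was not tested. The surfactant genes of the lung were looked at after their values had been seen. SFTPC was 9.47 in Control fetus 4 and 8.10 in CORT fetus 4 against a median of 6.76. SP-A was highest in the same animals, at 7.52 in CORT fetus 4 and 7.47 in Control fetus 4, against a median of 7.13. SFTPB and SP-D were highest in Control fetus 6, at 7.37 and 7.49, and next in CORT fetus 4, at 7.28 and 7.00. Their medians were 6.76 and 6.88. What part, if any, lung or liver RNA has in the AHSG and SERPINA1 levels of Control fetus 4 was not tested.

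Lists of genes that work with the members were compared between lambs and fetuses, where 36.8% of all tested probes were called in CORT and 40.9% in Control animals. The counts below are on few genes and were not tested against those shares, and slide and age cannot be told apart. Of 92 other plasma protein genes in a fixed list, 10 had a probe and 6 passed the filter. In CORT animals 3 of the 6 were higher in lambs, among them IGF1 by 1.28 (SE 0.23) and SERPINF1 by 0.96 (SE 0.29). LCAT was lower on average, at -1.18 (SE 0.26), though CORT lamb 9 had the highest LCAT level of the 30 animals, 11.18. The SD of LCAT was 0.67 in CORT lambs and 0.18 in Control lambs. IGF1 is a growth factor and SERPINF1 an antiangiogenic serpin. LCAT esterifies the cholesterol of APOA1-bearing particles. In Control animals 3 of the 6 were again higher and 1 lower, with differences of 1.21 for IGF1, 1.29 for SERPINF1 and -1.52 for LCAT. The median difference of the 6 was 0.24 in CORT and 0.37 in Control animals.

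Around high-density lipoprotein, 2 of 18 listed genes were measured, LCAT and LPL. LPL, the lipase that releases fatty acids from lipoproteins, was higher in lambs by 1.27 (SE 0.22) in CORT and by 1.81 (SE 0.19) in Control animals, and LCAT was lower in both, as given above. Of 22 iron genes 4 were tested and 1 was called, lactoferrin (LTF), higher in lambs by 0.51 (SE 0.17) in CORT and 1.64 (SE 0.20) in Control animals. Of the thrombin list 2 of 31 genes were tested. PLAU, the urokinase that activates plasminogen, was lower by 0.45 (SE 0.07) in Control lambs, a difference of -0.45, and did not pass in CORT animals, at -0.29 (SE 0.12). Neither tested gene of the retinol and thyroid hormone list, THRA and THRB, passed, and THRA was well above background on only 1 of the 30 arrays. Of the serpins and their proteases SERPINF1 passed and MMP2 did not. Of the 10 adipocyte genes 4 were higher and 1 lower in lambs in each treatment. The fall was in UCP1, the uncoupling protein of brown fat, at -4.47 (SE 0.52) in CORT and -4.19 (SE 0.35) in Control animals, and SCD, a fatty acid desaturase, was higher by 1.18 (SE 0.42) and 1.27 (SE 0.38). In the hepatocyte list 1 of 5 genes fell, CYP3A24, at -0.73 (SE 0.09) in CORT and -0.66 (SE 0.16) in Control animals. CYP3A24 was well above background on 15 of the 30 arrays. Its means of 6.46 in Control lambs and 6.49 in CORT lambs were close to background, so the size of the fall is uncertain. The mesothelial, blood and cardiac muscle lists held 17 genes each, of which 2, 2 and 1 were tested, and none of these passed in any comparison. No listed gene passed in a comparison of CORT with Control. The difference of LTF between CORT and Control lambs was -0.90 (SE 0.18), and did not pass after adjustment over all tested probes (limma, adjusted p = 0.9996). No probe passed in that comparison. The study took genes at an unadjusted p under 0.05, and by that criterion reported LTF as having the most significant fall in EAT.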

How the data were processed

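RNA from epicardial fat was labelled with Cy3 and hybridised to a 1-colour Agilent sheep array, 1 array per animal. Per the file headers, the deposited scanner files hold mean foreground and median background intensity for each of 15744 spots, extracted by the authors with Feature Extraction 10.1.1.1. The authors also deposited log2 normalized values, of which the lamb columns served as an alternative and the 14 fetal columns were not used. The genome build is not given in the sources used here.

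Intensities were background corrected (normexp, offset 50), taken to log2, quantile normalized over 30 arrays and averaged by probe with limma 3.58.1 in R 4.3.3. A probe was tested if, on 6 or more arrays, it exceeded by 10% the level below which 95% of the 77 negative control spots lay. This kept 13077 of 15008 probes. The member genes, 11 lists and their tests were chosen with earlier results of these data known. Each comparison was fitted on its own groups with lmFit and eBayes, with Benjamini-Hochberg adjustment over all tested probes at 0.05. The 95% intervals use the moderated SE and the residual degrees of freedom. Exact permutation tests were two-sided. Differences between Control lambs and Control fetuses were not tested for the members, since the genes were chosen with that contrast in view.

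Every member was named with all its probes. From the lists, the 3 largest rises and 3 largest falls past the test were named in each comparison, along with the genes the lists' counts turn on, and for likeness the 3 named genes with the highest r among probes with a value on all 30 arrays. Some list genes are not reported here by name. No probe named TFRC or ADIPOQ was found by these rules. Names could be read for 1656 probes (11.03%). Tested on simulated data of 13010 probes, a log2 change of 1 was recovered for 92% to 96% of 200 changed probes. The simulated noise was independent and normal, with no slides, separate sets or background floor. The rate therefore does not apply to ALB or to the members near background. Groups came from the sample titles. Arrays carry no read depth, and the number of animals limits the precision. Alternatives were the scanner's processed signal (scaled to the 75th percentile), cyclic loess, no filter, a stricter filter, all arrays in 1 fit, the mean of a gene's probes, slide or replicate number as a block, the deposited values, and leaving out each animal.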

Additional observations from a re-analysis of the deposited data

Results flagged for a closer look

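In 6 of 28 sets of values (7 genes in 4 groups), 1 animal stood far from the rest of its group by Dixon's test, which marks about 5% of sets by chance. The genes were chosen with their variation between animals known, so the number of such sets is not read against that share. AHSG was 11.39 in Control fetus 4 against 6.42 to 7.09 in the 7 other Control fetuses, and 9.07 in CORT lamb 1 against 6.21 to 6.97 in the 8 other CORT lambs. On the second AHSG probe the other animals of these groups reached at most 6.88 and 6.69. TTR was 7.89 in Control lamb 6 against 6.33 to 6.69 in the 6 others, and 8.96 in CORT lamb 1 against 6.26 to 7.55. SERPINA1 was 7.49 in Control fetus 4 against 6.40 to 6.81, and on its dimmer probe the others reached at most 6.49. TF was 11.003 in Control lamb 6, below the 11.70 to 12.12 of the 6 other Control lambs. ALB gave no far animal because each group held several animals on either side of its gap.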

How the results depend on the processing

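The number of members called in each comparison, the 2 members with separate Control groups and the ALB spread were the same or moved by less than the allowed margin under all the alternatives run. APOA1 and TF in CORT lambs against CORT fetuses kept their call throughout, with largest adjusted p-values of 0.0034 and 6.2e-05 (limma) and differences of 0.84 to 1.05 and 1.50 to 1.61. No uncalled difference became called. Correlations of same-numbered animals ran from -0.23 to 0.41. They were not set against those of differently numbered animals, so they cannot tell whether replicate numbers pair the animals. With the replicate block APOA1 and TF stayed called.
The differences that turned direction were all uncalled, and their cause was not tested. With the processed signal TTR in lambs became -0.15, the TTR difference between the cortisol effects -0.55, and F2 in CORT lambs against CORT fetuses -0.50. With cyclic loess F2 in lambs became -0.0041, the TTR difference between effects -0.094, F2 by age in CORT animals -0.016 and ALB by age in CORT animals -0.056. With the replicate block TTR in fetuses became -0.028 and the SERPINA1 difference between effects 0.026. Leaving out each animal in turn, the cortisol difference in lambs ran from -0.092 to 0.27 for AHSG, -0.14 to 0.32 for TTR, -0.025 to 0.050 for F2 and -0.064 to 0.12 for TF. In fetuses it ran from -0.095 to 0.082 for TTR and -0.15 to 0.079 for SERPINA1. The difference between effects ran from -0.15 to 0.31 for TTR and -0.20 to 0.030 for SERPINA1. By age in CORT animals the range was -0.38 to 0.81 for ALB, -0.013 to 0.34 for AHSG, -0.15 to 0.018 for SERPINA1 and -0.023 to 0.064 for F2. Without Control fetus 4 the AHSG difference between Control lambs and Control fetuses, -0.59, became 0.02. The processed signal also widened the difference between Control lambs and Control fetuses to -1.37 for F2 and 0.97 for TTR, from -0.11 and 0.22. Closeness to background limits AHSG, TTR, SERPINA1 and F2.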
